A study of Homo sapiens with 6 samples.

Results

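Aminoacyl-tRNA synthetases attach each amino acid to its transfer RNA and so supply the ribosome with charged tRNA. The cytosol and the mitochondrion mostly use enzymes from separate nuclear genes. In the cytosol, 8 of these genes encode enzymes that assemble with the scaffold proteins AIMP1, AIMP2 and EEF1E1 (also called AIMP3) into the multi-synthetase complex, while the others work outside it. Many cytosolic synthetase genes are known targets of ATF4, the transcription factor of the integrated stress response, and genes of protein synthesis as a class are known to respond to MYC.

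The genes were chosen by symbol, as protein-coding synthetase genes with the 3 scaffold genes, which gave 40 of the 58096 genes listed in the files. They comprise 8 enzymes of the complex, 3 scaffold proteins, 12 other cytosolic enzymes and 17 mitochondrial enzymes. KARS1 and GARS1 are known to supply both compartments and are counted here with the cytosolic enzymes. All 40 passed the filter on low counts, with between 46 and 10297 reads per gene and library. Gene names follow the symbol list, and positions are from GENCODE release 29 on GRCh38.

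Total RNA came from ALL-SIL, an established human line of T-cell acute lymphoblastic leukaemia, so all groups are 1 line. Cells labelled JQ1 (3 libraries) received 1 µM JQ1, which competes with acetylated histones for the bromodomains of BET proteins, for 24 h. Those labelled DMSO (3 libraries) are the solvent controls by title, although the treatment text of every sample repeats the JQ1 dose and time. The labels do not tell whether replicates are separate cultures. The p-values therefore describe the scatter of these libraries only, and that scatter may be technical.

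Libraries held 15925885 to 25293884 reads assigned to genes, and 1 CPM, the unit of level used here (a gene's reads scaled to a common library size), corresponded to about 15.5 to 26.4 reads. MYC, which BET inhibition is known to lower, was at 345 to 368 CPM in DMSO and 120 to 149 in JQ1, and HEXIM1, which it is known to raise, at 22.2 to 36.4 and 71.2 to 109. Of 8 T-lineage markers 7 were tested and present (CD3D at 358 to 424 CPM in DMSO), while PTCRA was at most 1.3 CPM. Under JQ1 6 of those 7 markers fell, and their summed level was 1469 to 1657 CPM in DMSO and 893 to 1138 in JQ1; the part of this shift in the results was not tested. The myeloid, erythroid and epithelial markers were each below 1 CPM in all libraries, as were 3 of 4 B-lineage and 2 of 3 stromal markers. The exceptions were CD79A (3.83 to 12.1 CPM in DMSO) and PDGFRB (7.83 to 10.6).

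All 40 genes were tested for a difference between JQ1 and DMSO: 14 fell under JQ1, 2 rose and 24 did not pass the test (edgeR quasi-likelihood test, Benjamini-Hochberg adjusted p under 0.05 over all genes tested). Of all 13975 genes tested 36.6% passed, with 20.6% lower and 15.9% higher. Here 35% fell and 5% rose, while of the tested protein-coding genes 24.3% fell and 17.0% rose. The median log2 change of the 40 genes was -0.22 against 0.00 for all genes and -0.03 for the tested protein-coding genes. Without DMSO replicate 3 the median of the 40 genes was -0.11. The changes were moderate, from a fall by 0.84 for VARS1 to a rise of 0.32 for SARS1 on the log2 scale. The JQ1 and DMSO libraries did not overlap for 19 of the 40 genes, 15 in the lower direction and 4 in the higher, against 48.9%, 26.0% and 22.9% of all genes tested. The summed level of the 40 genes was 3574, 3443 and 3962 CPM in DMSO replicates 1, 2 and 3 and 3005, 2963 and 3345 CPM in JQ1. In bulk RNA, less RNA per cell and fewer cells of a kind cannot be told apart.

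**Figure D1:**
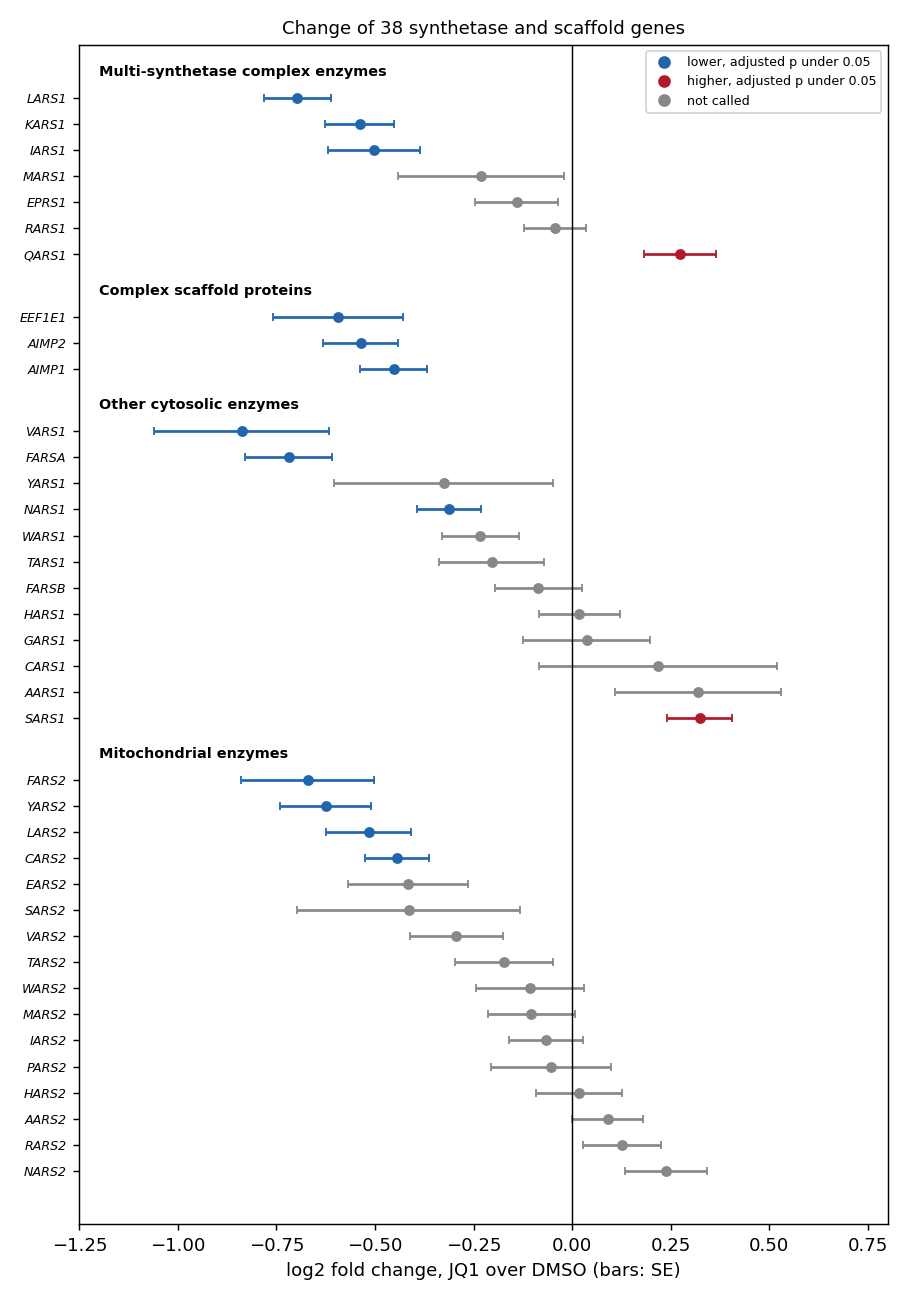
Log2 fold change of JQ1 over DMSO for 38 of the 40 genes in their 4 groups, with bars of 1 standard error (SE); colour marks genes called lower, higher or not called at an edgeR adjusted p under 0.05. All 3 scaffold genes are lower, and the 2 genes called higher are QARS1 in the complex and SARS1 outside it.

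Libraries with the same replicate number deviated together, so the number was also tried as a pair. The labels state no pairing. It was inferred from these same data, so calls and p-values with the block depend on that inference. With the number as a block, 21 of the 40 genes fell and 6 rose, while of all genes tested it called 29.6% lower and 27.3% higher. All 16 genes called without the block were called again in the same direction. The block added 7 falls (EARS2, SARS2, YARS1, VARS2, WARS1, MARS1 and TARS1) and 4 rises (AARS1, CARS1 and NARS2 among them). Within each number the sign of JQ1 over DMSO was the same in all 3 pairs for 33 genes. For the 16 called without the block the groups did not overlap, so any pairing gives the same sign. The other 17 were among the 24 genes not called. The share over all genes tested was not computed. Values below are without the block unless it is named.

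Enzymes of the multi-synthetase complex did not move as a unit: 4 of 8 fell, 1 rose and 3 did not pass. The shares were 50% lower and 12.5% higher, against 20.6% and 15.9% of all genes tested. Among them LARS1 (leucine; ENSG00000133706.17, chromosome 5, 146113038 to 146182660, minus strand) had the smallest p of all 40 genes. LARS1 was at 224, 226 and 231 CPM in DMSO replicates 1, 2 and 3 and at 147, 133 and 140 CPM in JQ1. The groups were far apart, and the fall was 1.62-fold (log2 change -0.70 ± 0.08 SE, edgeR adjusted p = 0.00019). KARS1, for lysine, also fell (-0.54 ± 0.09, edgeR adjusted p = 0.001), from 262, 252 and 245 CPM to 167, 184 and 171 CPM. IARS1, for isoleucine, went from 351, 313 and 390 CPM to 261, 218 and 265 CPM, so that DMSO replicate 2 was the closest control and still lay above every JQ1 library (-0.50 ± 0.12, edgeR adjusted p = 0.0072).

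QARS1, the glutamine enzyme, moved the other way. Its levels were 145, 159 and 151 CPM in DMSO and 169, 197 and 184 CPM in JQ1, a log2 change of 0.27 ± 0.09 (edgeR adjusted p = 0.038). This small rise was the least stable call. Leaving out JQ1 replicate 2 or 3, or any DMSO replicate, ended it (log2 change 0.22 to 0.31, edgeR adjusted p of 0.053 to 0.12). It was also lost when counts were scaled by library size alone (0.21, edgeR adjusted p = 0.094), without the filter on low counts (0.065) and with unstranded counts (0.06). With the block its adjusted p was 0.00028. The remaining enzymes of the complex did not pass: EPRS1, which charges both glutamate and proline, had -0.14 ± 0.11, RARS1 (arginine) -0.04 ± 0.08 and MARS1 (methionine) -0.23 ± 0.21, which was 0.03 without DMSO replicate 3. RARS1 held the tightest values, at 83.004 to 85.3 CPM in JQ1 and 83.3 to 91.0 in DMSO, with an approximate 95% interval of its log2 change from -0.20 to 0.11.

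All 3 scaffold genes fell, against 20.6% of all genes tested. AIMP1 was at 79.3, 81.3 and 76.3 CPM in DMSO replicates 1, 2 and 3 and at 61.4, 57.8 and 53.8 CPM in JQ1 (-0.45 ± 0.09, edgeR adjusted p = 0.0023). AIMP2, at chromosome 7, 6009245 to 6023834, plus strand, was at 39.4, 41.8 and 37.0 CPM and at 25.8, 28.4 and 27.3 CPM (-0.54 ± 0.10, edgeR adjusted p = 0.0017). Neither gene's groups overlapped. EEF1E1 had fewer reads and a wider spread, with 16.8, 14.3 and 18.2 CPM in DMSO and 10.9, 8.78 and 13.1 in JQ1 (-0.59 ± 0.17, edgeR adjusted p = 0.018). Its call was lost without JQ1 replicate 2, DMSO replicate 1 or DMSO replicate 3 (edgeR adjusted p = 0.055, 0.051 and 0.062). EEF1E1 shares 18.7% of its exon bases with a readthrough gene on the same strand, and 28.9% of those of AIMP2 lie opposite exons of EIF2AK1.

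**Figure D2:**
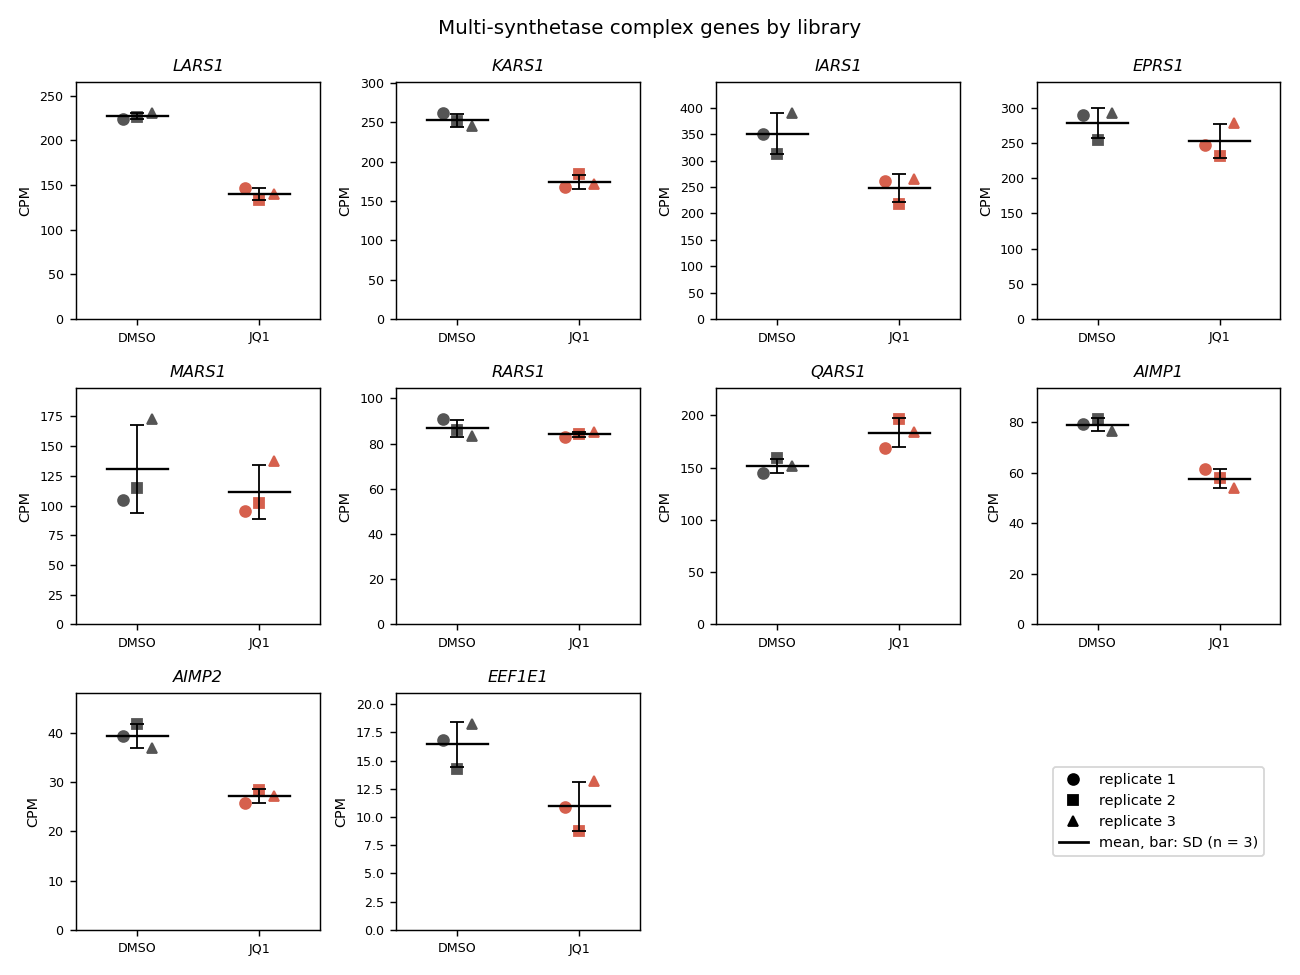
CPM of enzymes and the 3 scaffold genes of the multi-synthetase complex in each library, by group, with symbols for the replicate number and bars for mean and SD (n = 3). LARS1, KARS1, IARS1 and the 3 scaffold genes are lower in every JQ1 library than in any DMSO library, and QARS1 is higher. MARS1, IARS1, EPRS1 and EEF1E1 are highest in the library numbered 3 of each group.

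Of the 12 other cytosolic enzymes 3 fell and 1 rose (25% and 8.3%, against 20.6% lower and 15.9% higher of all genes tested). VARS1, for valine, showed the lowest log2 change of the 40 genes (-0.84 ± 0.22, edgeR adjusted p = 0.02), from 85.0, 72.4 and 115 CPM in DMSO replicates 1, 2 and 3 to 47.0, 39.8 and 65.9 CPM in JQ1. Its wide spread came from the libraries numbered 3, which were highest in each group. Within numbers 1, 2 and 3 its log2 ratios were -0.86, -0.86 and -0.80, and the adjusted p with the block was 4.9e-13. Without JQ1 replicate 1 the fall was 0.78 and missed the threshold (edgeR adjusted p = 0.079). NARS1, for asparagine, changed little but evenly, from 204, 204 and 214 CPM to 168, 165 and 169 CPM (-0.31 ± 0.08, edgeR adjusted p = 0.013). SARS1, for serine (chromosome 1, 109213918 to 109238169, plus strand), rose from 95.6, 96.0 and 101.3 CPM to 117, 121 and 129 CPM, with no overlap (0.32 ± 0.08, edgeR adjusted p = 0.011).

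Phenylalanyl-tRNA synthetase of the cytosol is built from alpha and beta subunits, encoded by FARSA and FARSB, and their RNAs changed unequally. FARSA went from 103, 96.2 and 125 CPM in DMSO to 65.5, 61.2 and 70.3 CPM in JQ1, which was 1.65-fold lower (-0.72 ± 0.11, edgeR adjusted p = 0.00069). FARSB had 69.9, 63.4 and 77.3 CPM in DMSO and 69.2, 57.3 and 72.0 CPM in JQ1, with overlapping groups (-0.09 ± 0.11, edgeR adjusted p = 0.58). The ratio of FARSA to FARSB, which does not depend on library scaling, was 1.48, 1.52 and 1.61 in DMSO and 0.947, 1.07 and 0.976 in JQ1. Per kilobase of merged exon, the levels were 44.4 ± 6.08 CPM for FARSA and 20.8 ± 2.06 for FARSB in DMSO, and 27.0 ± 1.86 and 19.6 ± 2.32 in JQ1 (SD, n = 3).

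The ratio of LARS1 to QARS1 within the complex was 1.498 ± 0.06 in DMSO and 0.768 ± 0.10 in JQ1 (SD, n = 3). Both this ratio and that of FARSA to FARSB were chosen, with that of NARS1 to NARS2, after their values were seen. In these 3 ratios the JQ1 libraries lay below the DMSO libraries. The exact permutation test (2-sided) gave p = 0.1 for each (0.1 after Benjamini-Hochberg adjustment over the 4 ratios computed), the smallest value that 3 libraries against 3 can give.

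Among the uncalled cytosolic enzymes, WARS1, the tryptophan enzyme that interferon is known to induce, was at 80.5, 88.6 and 96.3 CPM in DMSO and 69.1, 81.7 and 75.3 CPM in JQ1. The groups overlapped and the log2 change of -0.23 ± 0.10 did not pass (edgeR adjusted p = 0.089; 0.0024 with the block). GARS1, for glycine, had 117, 105 and 160 CPM in DMSO and 123.3, 116 and 153 CPM in JQ1. Number 3 stood apart from numbers 1 and 2 by more than JQ1 did from DMSO, and the log2 change was 0.04 ± 0.16. HARS1, for histidine, was level at 51.6 to 63.7 CPM in DMSO and 54.9 to 63.5 CPM in JQ1, with an approximate 95% interval for its log2 change from -0.18 to 0.22. HARS2, its mitochondrial counterpart, was at 39.6, 33.4 and 33.5 CPM in DMSO and 38.1, 37.2 and 32.4 CPM in JQ1, again with overlapping groups (-0.20 to 0.23).

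Of the 17 mitochondrial enzymes 4 fell, 13 did not pass and 0 rose (23.5% lower, against 20.6% of all genes and 24.3% of protein-coding genes). Their median log2 change was -0.11. The median was -0.19 without JQ1 replicate 3, and 1 gene was called higher without JQ1 replicate 1. In the higher direction edgeR gave 1 gene (NARS2) at an unadjusted p under 0.05, DESeq2 and limma-voom called 0, and the block called 2, NARS2 among them. FARS2, for phenylalanine, fell from 18.7, 17.5 and 22.7 CPM in DMSO to 11.1, 10.7 and 15.5 CPM in JQ1 (-0.67 ± 0.17, edgeR adjusted p = 0.01). YARS2, for tyrosine, fell from 26.0, 24.1 and 24.6 CPM to 16.8, 14.1 and 17.5 CPM (-0.63 ± 0.12, edgeR adjusted p = 0.0022). Their groups did not overlap, although FARS2 had its highest library at number 3 on both sides. LARS2, for leucine, fell from 69.7, 54.9 and 63.7 CPM to 45.9, 40.1 and 45.6 CPM (-0.52 ± 0.11, edgeR adjusted p = 0.0041). CARS2, for cysteine, was at 71.9, 72.7 and 78.8 CPM in DMSO and at 55.9, 53.6 and 54.7 in JQ1 (-0.44 ± 0.08, edgeR adjusted p = 0.002), the narrowest JQ1 spread of the 4.

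EARS2, for glutamate, lay at the threshold. It had 45.1, 40.6 and 46.8 CPM in DMSO and 36.9, 24.6 and 37.8 CPM in JQ1 (-0.42 ± 0.15, edgeR adjusted p = 0.055), with no overlap, and was called lower by DESeq2 (adjusted p = 0.044), limma-voom (0.046) and the block (5.0e-05). Without JQ1 replicate 2 its log2 change was -0.24 (edgeR adjusted p = 0.11), and without DMSO replicate 1 or 3 the adjusted p was 0.13 and 0.14. SARS2 (-0.41 ± 0.28) and VARS2 (-0.29 ± 0.12) share 46.2% and 22.0% of their exon bases with another gene on the same strand, so their reads are incomplete where a read fits both genes. The other mitochondrial enzymes had log2 changes between -0.17 (TARS2) and 0.24 (NARS2). Of these, IARS2, the isoleucine enzyme, was the most abundant per kilobase of merged exon (29.1 ± 2.46 CPM in DMSO, SD, n = 3).

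For 14 amino acids 1 cytosolic and 1 mitochondrial gene share the stem of their symbol. Both genes fell for leucine only. In 4 cases only the cytosolic gene fell (IARS1, NARS1 and VARS1 among them), and in 2 only the mitochondrial (CARS2 and YARS2). For asparagine, NARS1 fell by 0.31 while NARS2 had 0.24 ± 0.10 (edgeR adjusted p = 0.1; 0.0047 with the block), and the NARS1 to NARS2 ratio was 5.10 ± 0.34 and 3.49 ± 0.32 (SD, n = 3). Per kilobase of merged exon the cytosolic gene had the higher DMSO level in 12 of the 14 cases. The median of such levels was 26.5 CPM per kilobase over the 20 cytosolic enzymes and 7.70 over the 17 mitochondrial ones.

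**Figure D3:**
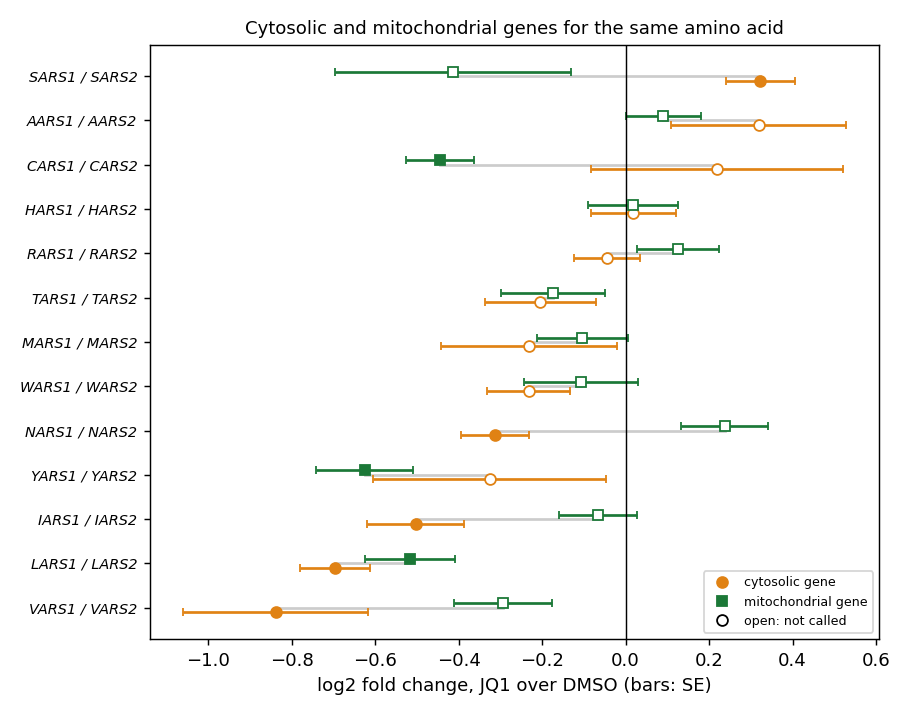
Log2 fold change of JQ1 over DMSO (bars: SE) of the cytosolic and the mitochondrial gene for each of 13 amino acids; filled symbols are called at an edgeR adjusted p under 0.05. The leucine genes are the ones where both symbols are filled and lower, and the asparagine genes lie on opposite sides of 0.

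The libraries numbered 3 stood apart for part of the family, in JQ1 and DMSO alike. Among 13 cytosolic enzymes commonly listed as ATF4-driven, number 3 was the highest library in both groups for 11. This was so for 2 of 7 cytosolic enzymes not so listed, 6 of 17 mitochondrial enzymes and 18.5% of all genes tested. YARS1, for tyrosine, had 95.5, 90.3 and 159 CPM in DMSO replicates 1, 2 and 3 and 81.4, 72.3 and 122 CPM in JQ1. CARS1, for cysteine, had 18.4, 21.5 and 35.9 CPM in DMSO and 22.1, 26.8 and 40.03 in JQ1. AARS1, for alanine, had 78.8, 94.5 and 132 CPM in DMSO and 103, 122 and 156 in JQ1. In each of these genes the groups overlapped, yet JQ1 lay on the same side of DMSO within every number.

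Within numbers 1, 2 and 3 the log2 ratios of JQ1 over DMSO were -0.23, -0.32 and -0.38 for YARS1, 0.27, 0.32 and 0.16 for CARS1, and 0.39, 0.37 and 0.25 for AARS1. None of the 3 passed without the block (edgeR adjusted p = 0.41, 0.61 and 0.27), and all did with it (5.1e-05, 0.01 and 2.0e-05). AARS1 also passed without DMSO replicate 3 (0.55, edgeR adjusted p = 0.039). MARS1 behaved likewise, with 105, 115 and 173 CPM in DMSO, 95.5, 102 and 138 CPM in JQ1 and an adjusted p of 0.0037 with the block. With both libraries numbered 3 left out, 13 of the 40 genes were lower and 1 higher; NARS1 (edgeR adjusted p = 0.071) and QARS1 (0.13) then missed the threshold. In both groups the libraries numbered 3 had the highest share of reads in no gene (24.9% in JQ1 and 26.1% in DMSO, against 18.8% to 23.8% in the others). They also had the lowest shares of reads fitting several places (14.1% and 14.3%) and of unmapped reads (1.48% and 1.63%). The part of these differences in the pattern was not tested.

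**Figure D4:**
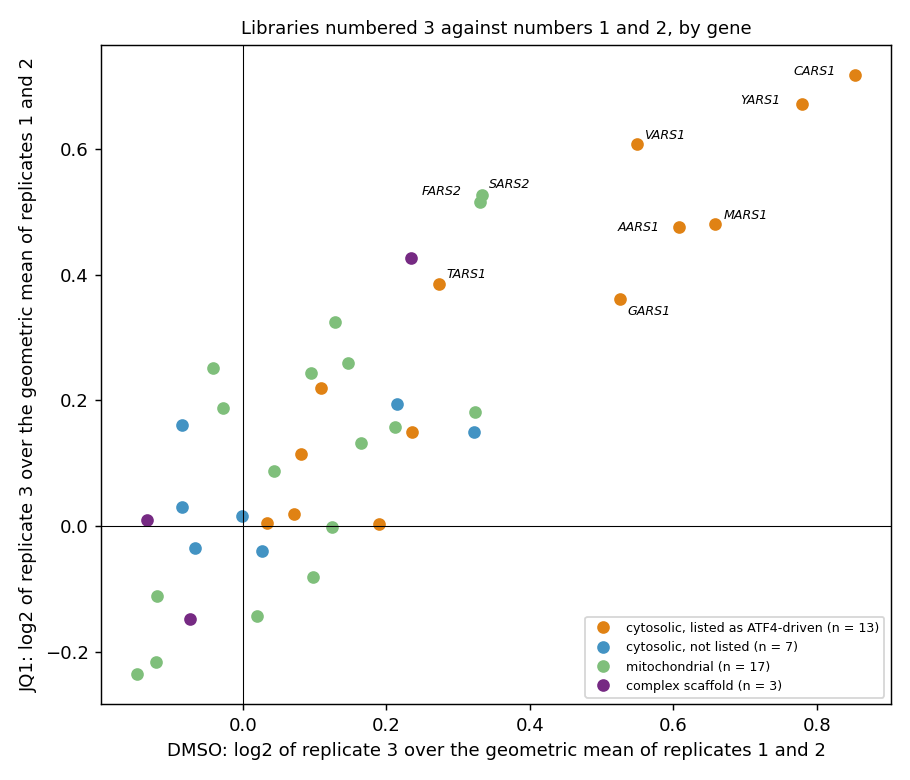
For each of the 40 genes, log2 of the level in the library numbered 3 over the geometric mean of those numbered 1 and 2, in DMSO (horizontal) and JQ1 (vertical), coloured by compartment, with the cytosolic enzymes split by the ATF4 list. CARS1, YARS1, VARS1, MARS1, AARS1 and GARS1 lie far to the upper right, so number 3 is high for them in both groups.

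The composite element that ATF4 binds has the core TGATGNAA, and the sequences around this core are shown because the enzymes listed as ATF4-driven included 11 of 13 with number 3 highest in both groups. Windows of 250 bases before to 50 after the start site (RefSeq, GRCh38.p14) were matched for 33 of the 40 genes, and 8 held the core on either strand, against 4.46% of 27305 genes with such windows. Capitals mark the core or its reverse complement in 30 bases of the gene's own strand, 5′ to 3′.
AARS1: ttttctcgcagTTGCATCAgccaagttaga
CARS1: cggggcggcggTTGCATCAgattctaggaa
GARS1: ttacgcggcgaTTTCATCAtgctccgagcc
IARS1: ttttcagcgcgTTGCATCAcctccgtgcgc
MARS1: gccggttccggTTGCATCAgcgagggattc
NARS1: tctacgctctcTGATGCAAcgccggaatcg
TARS1: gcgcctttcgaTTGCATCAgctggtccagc
YARS2: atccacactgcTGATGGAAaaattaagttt
In order, they lie at chr16:70289675-70289704 (minus), chr11:3057407-3057436 (minus), chr7:30594834-30594863 (plus), chr9:92293692-92293721 (minus), chr12:57488053-57488082 (plus), chr18:57621804-57621833 (minus), chr5:33440956-33440985 (plus) and chr12:32756076-32756105 (minus). Number 3 was the highest library of both groups for 7 of these 8 genes, YARS2 being the exception, and for 9 of the 25 other matched genes. The 7 are all on the ATF4 list and among its 11 of 13, so this count repeats that one. Among listed genes whose windows lacked the core, EPRS1 and SARS1 also had number 3 highest in both groups, and WARS1 did not. The margin was small for NARS1, where number 3 was 1.01-fold the other libraries in JQ1, and 1.65-fold for CARS1. Of the 8 genes with the core 3 fell under JQ1 (IARS1, NARS1 and YARS2) and 5 were not called. Of the 40 genes 35% fell, and of all genes tested 20.6%. With the block 7 of the 8 were called: AARS1 and CARS1 rose, and MARS1 and TARS1 fell, as did the 3 above. Of all genes tested the block called 27.3% higher and 29.6% lower. The 33 genes had 45 windows, since some have a second start site, and a second window of CARS1, GARS1 and TARS1 lacked the core. By the GENCODE gene positions, the stretches of CARS1, GARS1, IARS1, MARS1, NARS1 and TARS1 lie inside the gene. Those of AARS1 and YARS2 lie before it. A match is a description of these letters and not a site of binding.

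The E-box CACGTG, the palindrome that MYC with MAX binds, was in the window of 5 of the 33 genes (AIMP2, CARS2, EARS2, IARS1 and MARS2), against 8.77% of all genes. AIMP2, CARS2 and IARS1 fell, and EARS2 and MARS2 were not called, while 35% of the 40 genes and 20.6% of all genes tested fell. The 30 bases around each E-box, in capitals, are shown because these genes hold the letters of the MYC site in a promoter window. For AIMP2 and CARS2 a second window lacked it, and the match in AIMP2 lies inside the gene as placed above. Those in CARS2 (chromosome 13, 110641412 to 110713603) and EARS2 (chromosome 16, 23522014 to 23557731) also lie inside the gene.
AIMP2: ccgggcgctggcCACGTGcaggtaggagcg
CARS2: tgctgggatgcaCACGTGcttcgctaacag
EARS2: cagggagaagccCACGTGtgctattccatc
IARS1: tggttcgttttcCACGTGgaggcgcaaaac
MARS2: atgcgcctctcaCACGTGctgtcagaacgc
They lie, in the same order, at chr7:6009478-6009507 (plus), chr13:110706501-110706530 (minus), chr16:23557348-23557377 (minus), chr9:92293866-92293895 (minus) and chr2:197705346-197705375 (plus). IARS1 is the gene that held both motifs, which do not overlap, and the 250 bases before its start site (chr9:92293698-92293947, minus strand) are printed with both in capitals.
IARS1: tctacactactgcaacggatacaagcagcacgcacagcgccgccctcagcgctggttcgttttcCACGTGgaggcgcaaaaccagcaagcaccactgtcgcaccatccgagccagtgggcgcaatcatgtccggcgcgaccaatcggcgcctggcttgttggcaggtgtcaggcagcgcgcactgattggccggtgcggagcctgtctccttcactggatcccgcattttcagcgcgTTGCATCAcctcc
LARS1 and VARS1, which fell, were among the 7 genes with no window matched.

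Genes of the integrated stress response, a list of 30 of which 25 were tested, did not share a direction. Of these 3 rose, 3 fell and 19 did not pass, with a median log2 change of -0.13. The shares were 12% each way, against 15.9% higher and 20.6% lower of all genes tested. ATF4 itself was at 173, 153 and 267 CPM in DMSO replicates 1, 2 and 3 and 186, 172 and 228 CPM in JQ1. As with the synthetases above, number 3 was highest in both groups, and JQ1 over DMSO was -0.02 ± 0.21 (edgeR adjusted p = 0.96); without DMSO replicate 3 it was 0.27 and did not pass (0.15). ASNS, the asparagine synthetase (14.9 to 18.9 CPM in DMSO and 11.6 to 19.8 in JQ1, -0.13 ± 0.19), and DDIT3 (15.9 to 19.8 and 17.6 to 25.1 CPM, 0.26 ± 0.15) had overlapping groups. CHAC1, near 1 CPM, had 0.25 ± 0.49. TRIB3, a pseudokinase induced by ATF4, fell from 33.7 to 42.2 CPM in DMSO to 8.97 to 20.9 in JQ1 (-1.54 ± 0.30, edgeR adjusted p = 0.0059; 0.052 without both libraries numbered 3), and JDP2 also fell (-1.55 ± 0.25). SESN2, a stress-induced inhibitor of mTORC1 signalling, rose from 7.19 to 10.6 CPM to 20.6 to 24.4 CPM (1.36 ± 0.15), and PSPH of serine synthesis rose by 0.68 ± 0.14. With the block 6 of the 25 were higher and 9 lower, shares near the 27.3% and 29.6% of all genes. Number 3 was the highest library of both groups for 14 of the 25 (56%), against 18.5% of all genes tested. It was the lowest of both groups for DDIT3 and ATF5. For ASNS and TRIB3 number 3 was 0.69-fold and 0.76-fold the other libraries in JQ1, and 1.00-fold and 1.13-fold in DMSO.

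Of 8 genes of eIF2 phosphorylation, with the eIF2 subunit gene EIF2S1 among them, 2 fell and 2 rose. That is 25% each way, against 20.6% lower and 15.9% higher of all genes tested. EIF2AK4 encodes GCN2, the kinase that senses uncharged tRNA, and went from 77.7, 73.5 and 63.0 CPM in DMSO to 43.4, 46.5 and 30.04 CPM in JQ1 (-0.83 ± 0.15, edgeR adjusted p = 0.0025). EIF2AK2, which senses double-stranded RNA, fell by 0.53 ± 0.12, a call that missed the threshold without both libraries numbered 3 (edgeR adjusted p = 0.058). PPP1R15A and PPP1R15B, which target a phosphatase to eIF2, rose by 0.77 ± 0.12 and 0.30 ± 0.10 (edgeR adjusted p = 0.00087 and 0.038), the latter a call lost without JQ1 replicate 1 or 3 or DMSO replicate 2 or 3 (edgeR adjusted p from 0.073 to 0.13). The block called 4 of the 8 lower and 2 higher, against 29.6% and 27.3% of all genes tested.

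Of 15 tested genes of tRNA maturation, editing and alternative charging 6 fell and 3 rose. The shares were 40% and 20%, against 20.6% lower and 15.9% higher of all genes tested. XPOT, the nuclear exporter of tRNA, went from 310, 283 and 301 CPM in DMSO to 175, 174 and 181 CPM in JQ1 (-0.75 ± 0.09, edgeR adjusted p = 0.00015). Mitochondria make glutaminyl-tRNA with an amidotransferase, and its subunit genes QRSL1 (-0.66 ± 0.08) and GATB (-0.88 ± 0.13) fell while GATC had -0.05 ± 0.10 (edgeR adjusted p = 0.69). TARS3, a further threonyl-tRNA synthetase outside the symbol rule, rose 2.85-fold from 4.68, 3.85 and 3.56 CPM to 13.5, 9.997 and 10.8 CPM (1.51 ± 0.18, edgeR adjusted p = 0.00017). TARS1, the main cytosolic threonine enzyme, was at 141, 154 and 178 CPM in DMSO and 116, 133 and 162 CPM in JQ1 (-0.20 ± 0.13).

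Among 8 tested elongation factors that take up charged tRNA or follow it, 2 cytosolic genes rose and 2 mitochondrial genes fell. Each share was 25%, against 15.9% higher and 20.6% lower of all genes tested. EEF2, the translocase, rose from 1580, 1678 and 1534 CPM to 2424, 2767 and 2433 CPM (0.67 ± 0.12, edgeR adjusted p = 0.0018), and EEF1D rose by 0.49 ± 0.10. TUFM and TSFM, the mitochondrial elongation factors Tu and Ts, fell by 0.37 ± 0.08 and 0.40 ± 0.10 (edgeR adjusted p = 0.007 and 0.0094; 0.066 and 0.061 without both libraries numbered 3).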

How the data were processed

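Per the labels, a kit that keeps the strand of total RNA was used, and the submitters' processing notes name GRCh38. The aligner and annotation release were not given in the sources used here. The deposited files hold raw read counts per gene; reads unmapped, fitting several places, in no gene or ambiguous stand in 4 separate classes and were left out of totals. The reverse-strand count column was used (20.9 to 22.6 times the other).

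Counts were filtered (edgeR filterByExpr, minimum count 10, minimum total 15; 13975 genes), scaled by TMM (0.965 to 1.06) and fitted on group alone by the robust quasi-likelihood functions of edgeR 4.0.16 (glmQLFit, glmQLFTest) in R 4.3.3. Benjamini-Hochberg adjustment covered all tested genes. SE is the absolute log2 change over the square root of F; approximate 95% intervals span 1.96 SE on either side. The steps without the block were also run on simulated data. Those libraries were independent and held no shared deviation by replicate number, so they do not test the block. Of the 58096 identifiers, 53747 matched GENCODE release 29 with version; levels per kilobase use its merged exons.

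Same-numbered libraries correlated in their deviations from group means (0.33, 0.43 and 0.37 across genes); the pairing comes from the data. The rule gave per-library values to the called genes with the 12 smallest p, the scaffold genes, WARS1, GARS1, KARS1, HARS1, HARS2, MYC, HEXIM1, ATF4, ASNS, DDIT3, TRIB3, CHAC1 and up to 4 genes of smallest p per other list. The other genes described with values (VARS1, NARS1, QARS1, FARSB, EARS2, YARS1, CARS1, AARS1, MARS1, TARS1, GATC and the rest) were chosen after their values were seen. Members, lists and alternatives were chosen with earlier results of these data known. Alternatives were DESeq2 1.42.0, limma-voom (limma 3.58.1), 3 other scalings, 2 other filters, unstranded counts, the replicate block and leaving out libraries. Counts cover all 40 genes; the values of 2 of them are not reported here.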

Additional observations from a re-analysis of the deposited data

How the results depend on the processing

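Over all genes the numbers called were 2227 higher and 2883 lower; the replicate block gave 3813 higher and 4133 lower, and leaving out both libraries numbered 3 (chosen after seeing the data) gave 1423 higher and 2027 lower. Leaving out each library in turn gave 1707 to 1901 higher and 2436 to 2627 lower. Of the 40 genes, 2 were called higher; this was 6 with the replicate block, 1 when only library size scaled the counts, 1 with unstranded counts, 1 without both libraries numbered 3, and from 1 to 3 when each library was left out in turn. The number lower was 14, from 13 to 15 when each library was left out in turn, 21 with the replicate block, 13 without both libraries numbered 3, and from 14 to 16 with the other tools, scalings, filters and unstranded counts. The block made 11 further calls among the 40 genes and lost 0. No called gene of the 40 changed sign under any alternative. Since the groups of the called genes did not overlap, leaving out libraries could hardly have changed it. Among the 40 genes, 583 gene-by-alternative values kept their direction and side of the threshold, 20, all of genes not called, changed sign by less than 1 SE and did not pass it, 14 fell short of it, 22 passed it anew and 1 (MARS1 without DMSO replicate 3, 0.03) changed sign by more than its SE. Library size only shifted the median log2 change of all genes from 0.00 to -0.06 and that of the 40 genes from -0.22 to -0.29. The median of the 40 genes ranged from -0.28 to -0.11 when each library was left out in turn. The lowest read number of the 40 genes in a library was 46 (SARS2), where counting error is widest.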

Other observations

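Several of the 40 genes share a promoter region with a neighbour read in the other direction. In the RefSeq windows 10 such pairs had both genes tested: both fell in 2, the calls were opposite in 2, only the neighbour was called in 3 and neither in 3. Of all genes tested 20.6% were lower and 15.9% higher. Such pairs were not counted over all genes, so these numbers have no share to be set against. HARS1 and HARS2, whose start sites lie 85 bases apart, had log2 changes of 0.02 ± 0.10 and 0.02 ± 0.11 (SE). FARS2 and LYRM4, an iron-sulfur assembly gene 57 bases away, fell by 0.67 ± 0.17 and 0.66 ± 0.13. KARS1 fell by 0.54 ± 0.09 while TERF2IP, a telomere-binding gene 108 bases away, rose by 0.40 ± 0.09 (edgeR adjusted p = 0.0061). AIMP1 fell by 0.45 ± 0.09 while TBCK, 341 bases away, rose by 0.34 ± 0.11 (edgeR adjusted p = 0.033).

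Reads on the strand opposite to the gene were above 5% of both strands for 6 of the 40 genes. AIMP2 was among them with 9.95%, at a mean of 3.62 CPM on the opposite strand in DMSO and 3.81 in JQ1.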
